A study of Mus musculus with 12 samples.

Results

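Lipid-associated macrophage receptors and their partners were followed here through 7 genes: Trem2, Tyrobp, Gpnmb, Cd9, Il7r, Lgals3 and Fabp5. They were found as every array probe whose annotated gene symbol is one of these names, which gave 13 of the 45281 probes. Gpnmb and Il7r had 4 probes each and the other genes 1 each. All 7 genes had a probe that passed the filter on dim probes, which asked for a detection p below 0.05 on 3 or more arrays, and 12 of the 13 probes passed. Where a gene had several probes, the brightest one stood for it, and the others are given beside it.

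The RNA came from CD11c+ cells of mouse lung, labelled as antigen-presenting cells and collected with AutoMACS, a magnetic cell separator. The 4 groups of 3 arrays each were wild-type mice given PBS (phosphate-buffered saline, the reference), Mir22-/- mice given PBS, wild-type mice given nCB (nanoparticulate carbon black) and Mir22-/- mice given nCB. Every sample carries the strain label B6(Cg)-Tyrc-2J/ J and a labelled age of 4 months, while the protocol puts the start of exposure at 2 months of age and its length at 1 month. Mir22 encodes the microRNA miR-22, and the labels do not say how the allele was made. They also do not say whether arrays of a group came from separate or pooled animals, so the p-values reflect only how far these samples spread, and that spread may be technical.

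TREM2 is a membrane receptor of macrophages and microglia that binds lipids and lipoproteins and has no signalling tail of its own. It signals through TYROBP (DAP12), an adaptor whose phosphorylated tail recruits the kinase SYK. Macrophages that take up lipid or cell debris in fat, artery wall, liver and brain are known for high Trem2, together with Gpnmb, Cd9, Lgals3 and Fabp5, and alveolar macrophages handle surfactant lipid as part of their normal work.

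The mature strands of the microRNA gene named in the genotype labels are shown because the genotype comparison rests on them, with the seed (bases 2 to 8) in capitals. RefSeq places them on chromosome 11 of GRCm38.p6, plus strand, at chr11:75463772-75463793 and chr11:75463734-75463755.
miR-22-3p: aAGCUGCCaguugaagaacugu
miR-22-5p: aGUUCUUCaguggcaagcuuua
The seeds of the 2 strands differ.

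Of the 7 genes, 5 had a promoter listed in the RefSeq table (250 bases before to 50 after the start, GRCm38.p6). The promoters of the 3 genes with the largest rises are shown, 5′ to 3′ on the gene's strand, with motif matches in capitals. Trem2 lies on the plus strand at chr17:48346151-48346450, Gpnmb on the plus strand at chr6:49036268-49036567 and Il7r on the minus strand at chr15:9529827-9530126.
Trem2: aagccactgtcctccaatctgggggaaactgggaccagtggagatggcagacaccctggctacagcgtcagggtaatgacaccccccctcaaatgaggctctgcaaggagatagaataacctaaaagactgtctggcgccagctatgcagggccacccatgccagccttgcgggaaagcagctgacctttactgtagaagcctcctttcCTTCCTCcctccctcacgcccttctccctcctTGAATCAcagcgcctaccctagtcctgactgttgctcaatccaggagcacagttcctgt
Gpnmb: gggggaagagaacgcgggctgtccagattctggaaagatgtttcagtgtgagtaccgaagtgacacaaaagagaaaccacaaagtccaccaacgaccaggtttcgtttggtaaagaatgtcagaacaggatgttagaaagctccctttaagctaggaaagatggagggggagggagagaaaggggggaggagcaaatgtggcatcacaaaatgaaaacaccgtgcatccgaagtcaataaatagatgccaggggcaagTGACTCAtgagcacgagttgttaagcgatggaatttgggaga
Il7r: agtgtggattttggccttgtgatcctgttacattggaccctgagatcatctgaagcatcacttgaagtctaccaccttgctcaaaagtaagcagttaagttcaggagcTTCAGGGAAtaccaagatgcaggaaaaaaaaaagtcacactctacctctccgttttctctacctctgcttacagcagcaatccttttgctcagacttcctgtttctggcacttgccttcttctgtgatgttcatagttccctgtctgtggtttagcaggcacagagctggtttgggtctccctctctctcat
Both strands were searched for 4 motifs, and no matches overlapped. A loose AP-1 pattern, TGANTCA with any base (N) in the middle, was in 2 of the 5 promoters. It matched TGAATCA from position -9 of Trem2 and TGACTCA from position 9 of Gpnmb, where positions give the first base relative to the start. The same loose pattern was in 7.81% of all 32851 promoters. The PU.1 core GAGGAAG was in Trem2 alone of the 5, on the reverse strand from position -41 (13.6% of all promoters), and the STAT motif TTCNNNGAA in Il7r alone, from position -142 (8.3% of all). The start used for the Il7r promoter lies inside the RefSeq gene span (chr15:9506159-9529941), not at its end, so position -142 holds for that start only. The E-box CACGTG, which MITF and TFE factors bind, was in 0 of the 5 (7.15% of all). Binding at these matches was not measured.

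Mean intensity ran from 155.9 to 218 per array, 31.4% to 35% of probes were detected, and arrays of a group correlated at 0.9853 to 0.9917 across probes. No probe was listed for Mir22, so the genotype labels could not be checked on that gene. Itgax, which encodes CD11c, was detected on all 12 arrays and not called with nCB (-0.15 and 0.36). Ptprc, the leukocyte marker CD45, was also detected on all 12 and fell with nCB in both genotypes on its brightest probe (-0.72 and -0.74, limma adjusted p = 0.0442 and 0.0411), while its other probe differed by -0.30 and -0.20 with no call. Also detected throughout were the alveolar macrophage markers Marco and Car4, whereas Siglecf was detected on 3 and the dendritic cell factor Zbtb46 on 2. The T cell genes Cd3d, Cd3e and Cd3g and the epithelial genes Sftpc and Scgb1a1 were also detected on all 12. Values below are background-corrected, quantile-normalized log2 intensities, and a gene was called when its limma p, adjusted by Benjamini-Hochberg over 12380 features, was under 0.05.

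Carbon black raised 5 of the 7 genes in wild-type cells. Trem2 rose 6.13-fold, Il7r 5.31-fold, Gpnmb 3.91-fold, Fabp5 2.02-fold and Lgals3 1.28-fold. Tyrobp and Cd9 did not pass the test. Of all features 18.1% were called, 8.88% higher and 9.22% lower. The median difference of the 7 was 1.02 log2 units, against -0.02 over all features. The 7 genes were chosen with earlier results of these data known. The values of PBS and nCB arrays did not overlap for any of the 7 genes, which held for 34.1% of all features.

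In knockout cells the same 5 genes rose and 0 fell, where 16% of all features were called, 8.69% higher and 7.29% lower. The median difference of the 7 was 1.23, against -0.01 over all features. Values did not overlap between PBS and nCB for 6 of the 7, against 30.5% of all features, and the exception was Tyrobp. The 2 exposure comparisons set different arrays against each other. Their SEs and p-values share a common estimate of the spread from all 12 arrays, so they are not independent.

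**Figure D1:**
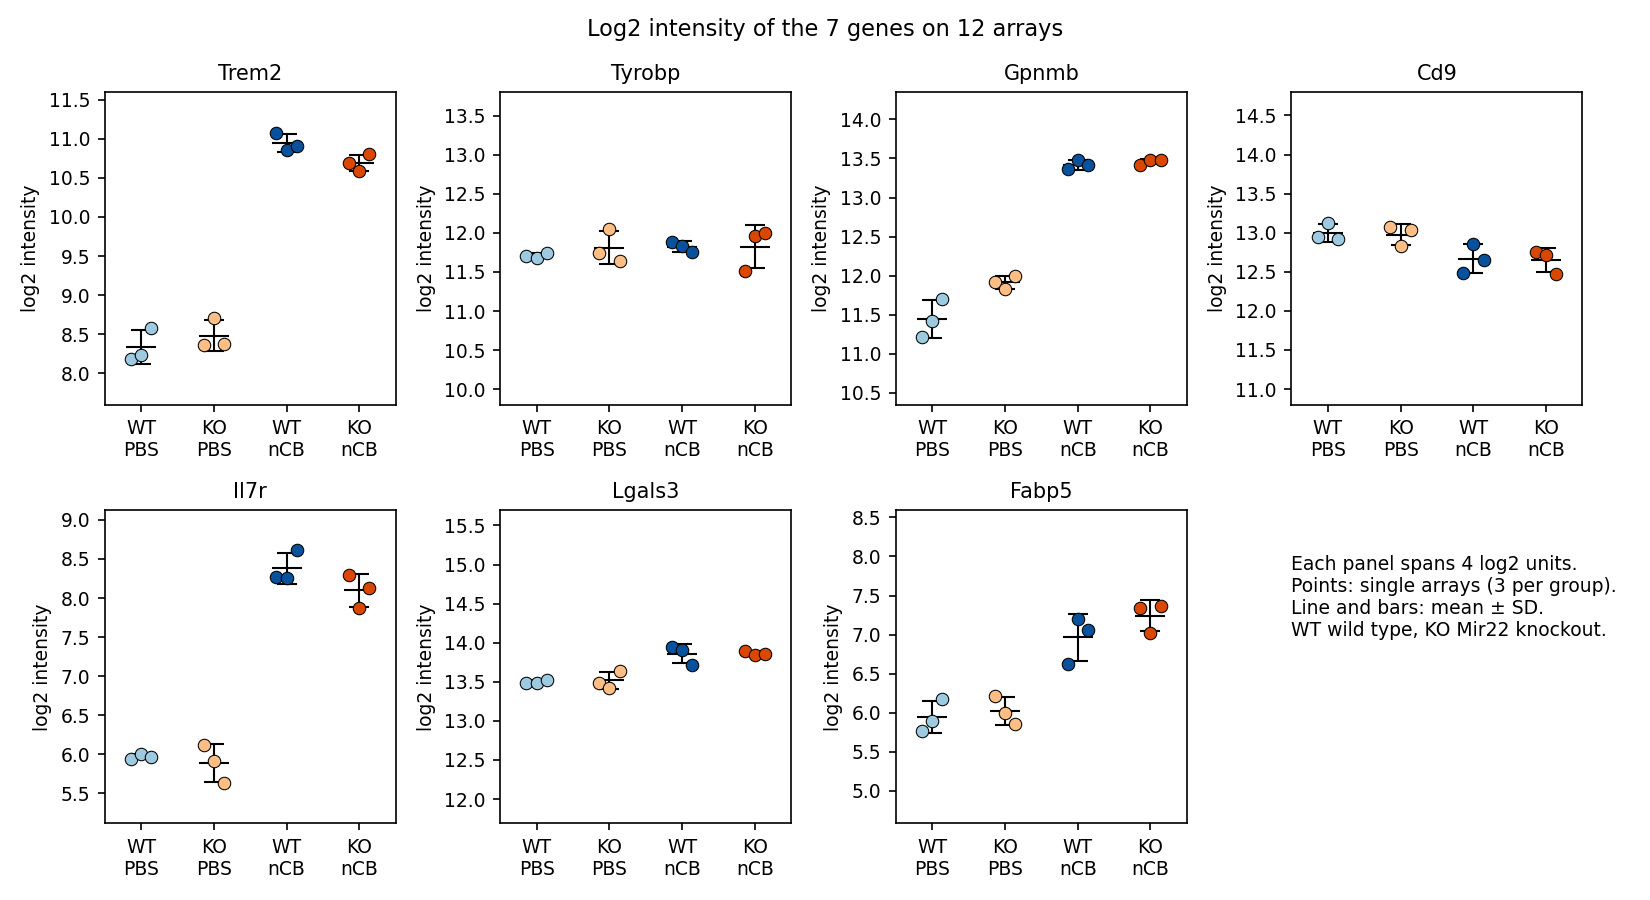
Log2 intensity (vertical axis, each panel spanning 4 log2 units) of the 7 genes on the 12 arrays, by group. Points are single arrays, and the line and bars give the mean ± SD of 3 arrays. Trem2, Gpnmb, Il7r and Fabp5 are higher on every nCB array than on every PBS array, Lgals3 is higher by less, Cd9 is lower, and Tyrobp stays between 11.51 and 12.05.

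Trem2, the lipid receptor on chromosome 17, had the largest rise of the 7 when each gene was read on its brightest probe. Its probe (ILMN_2992709) read 8.18, 8.24 and 8.58 on wild-type PBS arrays and 11.08, 10.86 and 10.91 on wild-type nCB arrays. In knockout cells it read 8.36, 8.71 and 8.37 with PBS and 10.69, 10.59 and 10.80 with nCB. Every nCB array stood above every PBS array, and the PBS arrays of the genotypes overlapped. The difference was 2.62 ± 0.14 log2 units (SE) in wild-type cells, a 6.13-fold rise (95% interval 5.00 to 7.51, limma adjusted p = 2.96e-09), and the 52nd largest of 12380 features by size. In knockout cells it was 2.22 ± 0.14, a 4.65-fold rise (3.80 to 5.70, limma adjusted p = 2.35e-08), and the 59th largest. Il7r was nearly level there, at 2.21, and probe 2 of Gpnmb rose by 2.73 in wild-type cells. As the samples are bulk, a change in the share of cells that express Trem2 and a change in its RNA per cell cannot be told apart, which holds for each gene below.

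Tyrobp, the signalling adaptor on chromosome 7, was detected on every array. Its probe (ILMN_2867147) read 11.70, 11.68 and 11.74 with PBS and 11.89, 11.83 and 11.75 with nCB in wild-type cells. The knockout values were 11.74, 12.05 and 11.64 with PBS and 11.51, 11.96 and 12.00 with nCB. The wild-type groups touched without overlapping (highest PBS 11.74, lowest nCB 11.75), and the knockout groups overlapped. The ratio of nCB to PBS was 1.08 in wild-type cells (95% interval 0.880 to 1.34, limma adjusted p = 0.65) and 1.01 in knockout cells (0.816 to 1.24, adjusted p = 0.976). A change of Tyrobp as large as the rise of Trem2 lies outside both intervals.

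Gpnmb, a membrane glycoprotein gene on chromosome 6 known to be induced by lysosomal load, rose in both genotypes. Its brightest probe (ILMN_2648669) read 11.22, 11.42 and 11.70 on wild-type PBS arrays and 13.36, 13.48 and 13.41 on wild-type nCB arrays. On knockout arrays it read 11.92, 11.83 and 12.00 with PBS and 13.42, 13.48 and 13.48 with nCB. The nCB arrays of both genotypes lay close together, from 13.36 to 13.48, while among the PBS arrays every knockout one stood above every wild-type one. The rise was 1.97 ± 0.12 in wild-type cells (3.91-fold, 95% interval 3.25 to 4.69, limma adjusted p = 2.19e-08) and 1.54 ± 0.12 in knockout cells (2.91-fold, 2.42 to 3.49, adjusted p = 4.04e-07).

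All 4 probes of Gpnmb rose in a fit of all 17346 detected probes, where 15.9% of probes were called in wild-type and 15.2% in knockout cells. Beside the brightest probe (3), probes 1, 2 and 4 rose by 1.49, 2.73 and 1.46 in wild-type cells and by 1.24, 1.69 and 1.38 in knockout cells. Probe 2 (ILMN_2614655) thus rose 6.63-fold in wild-type and 3.23-fold in knockout cells, the widest gap of the 4. On this probe the wild-type nCB arrays read 9.62, 10.07 and 9.37 and the knockout nCB arrays 9.59, 9.12 and 9.12, so these groups overlapped.

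Cd9, a tetraspanin of the cell surface on chromosome 6, went the other way without passing the test. Its probe (ILMN_2725414) read 12.95, 13.13 and 12.92 with PBS and 12.49, 12.86 and 12.65 with nCB in wild-type cells. In knockout cells the values were 13.07, 12.83 and 13.03 with PBS and 12.75, 12.72 and 12.47 with nCB. Every nCB array was below every PBS array of its genotype. The difference was -0.33 ± 0.13 in either genotype (limma adjusted p = 0.0965 in wild-type and 0.1 in knockout cells). Averaged over both genotypes, a comparison chosen after the data were seen, it was -0.33 ± 0.09 (adjusted p = 0.0135, with 27.1% of features called). It also passed within each genotype without background correction (adjusted p = 0.0397 and 0.0423), with an offset of 50 (0.0447 and 0.0476) and with a trended robust prior (0.0302 and 0.0324).

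Il7r, on chromosome 15, encodes the chain that binds interleukin-7 together with the common gamma chain, and TSLP together with CRLF2. Its brightest probe (ILMN_2680827, probe 3) read 5.94, 6.00 and 5.97 on wild-type PBS arrays and 8.27, 8.26 and 8.61 on wild-type nCB arrays. On knockout arrays it read 6.12, 5.91 and 5.63 with PBS and 8.29, 7.87 and 8.13 with nCB. Every nCB array stood above every PBS array, and this probe was detected on all 12 arrays. The rise was 2.41 ± 0.15 in wild-type cells (5.31-fold, 95% interval 4.27 to 6.62, limma adjusted p = 1.65e-08) and 2.21 ± 0.15 in knockout cells (4.63-fold, 3.72 to 5.76, adjusted p = 5.87e-08).

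The other Il7r probes were dim and did not give the same size. Probe 2 (ILMN_2659739) was detected on no wild-type PBS array and was at least 2.06-fold higher with nCB there, with group means of 4.42 and 5.58 (adjusted p over all probes 8.41e-04). Here "at least" sets each undetected array at its lowest detected intensity, or at its own value if higher. In knockout cells probe 2 rose by 0.68 (adjusted p = 0.0363 over all probes, limma). Probe 1 differed by 0.24 and 0.31 (limma adjusted p = 0.187 and 0.0782) and was detected on 7 arrays, 6 of them nCB arrays, as was probe 2. Both probes thus passed the filter only through the nCB arrays, where they were higher, so their p-values are only descriptive. Probe 4, detected on 1 array, was not tested. With the mean of the detected probes in place of the brightest, the rise of Il7r was 1.27 in wild-type and 1.06 in knockout cells. Without background correction it was 1.49 and 1.30.

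**Figure D2:**
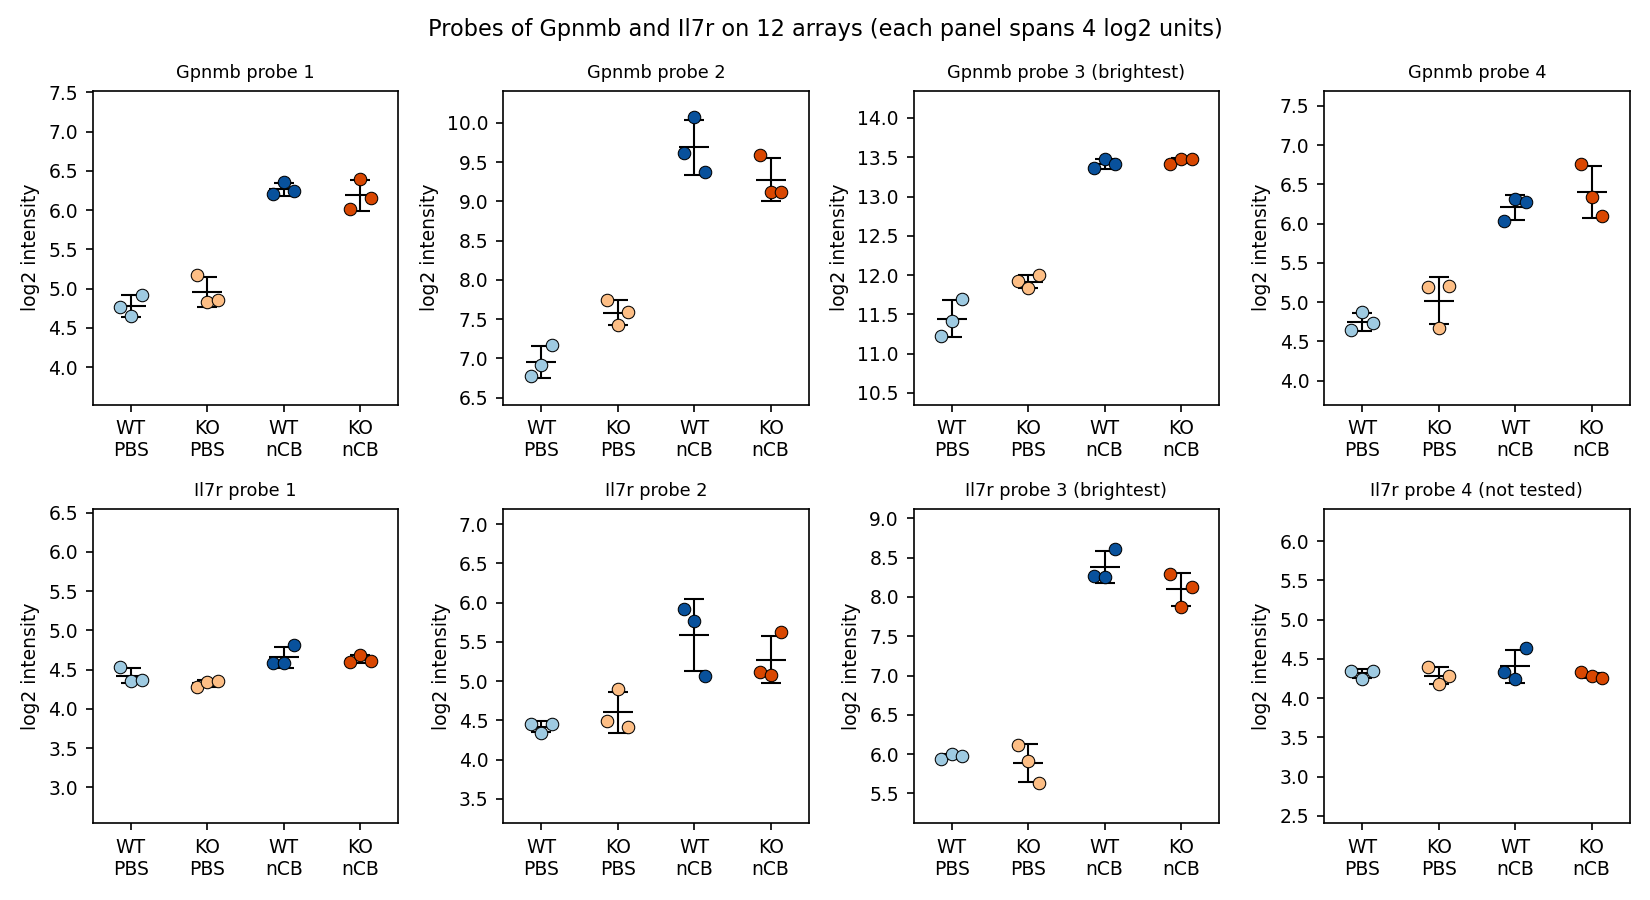
Log2 intensity (vertical axis, each panel spanning 4 log2 units) of the 4 Gpnmb probes (top) and the 4 Il7r probes (bottom) by group. Points are single arrays with the mean ± SD of 3. The nCB arrays lie above the PBS arrays on all 4 Gpnmb probes, whereas for Il7r the shift is large on probe 3, smaller on probe 2 and small on probe 1.

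Lgals3, on chromosome 14, encodes galectin-3, a lectin that binds damaged phagosomes and serves as a macrophage marker. Its probe (ILMN_1223317) read 13.49, 13.48 and 13.52 with PBS and 13.95, 13.90 and 13.72 with nCB in wild-type cells. In knockout cells it read 13.49, 13.42 and 13.64 with PBS and 13.89, 13.84 and 13.86 with nCB. The groups did not overlap in either genotype. The rise was 0.36 ± 0.11 in wild-type cells (1.28-fold, 95% interval 1.09 to 1.5, limma adjusted p = 0.0292) and 0.34 ± 0.11 in knockout cells (1.27-fold, 1.08 to 1.49, adjusted p = 0.0389). Averaged over both genotypes, a comparison chosen after the data were seen, it was 0.35 ± 0.08 (adjusted p = 0.00248).

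The call for Lgals3 within a genotype was fragile. In wild-type cells it was lost without wild-type PBS 1, 2 or 3 (limma adjusted p = 0.0724, 0.0881 and 0.0652) or wild-type nCB 1 or 2 (0.112 and 0.092). In knockout cells it was lost without knockout PBS 1 or 2 (0.0893 and 0.13), knockout nCB 1, 2 or 3 (0.097, 0.0794 and 0.0765), wild-type PBS 2 or 3 (0.055 and 0.052) or wild-type nCB 2 (0.0503). Median scaling in place of quantile normalization ended both calls (0.35 and 0.453), as did fitting the compared groups alone (0.0513 and 0.0941), and the authors' processed values ended the knockout call (0.0588).

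Fabp5, on chromosome 3, encodes a cytosolic carrier of fatty acids and rose in both genotypes. Its probe (ILMN_1235908) read 5.77, 5.89 and 6.17 with PBS and 6.63, 7.20 and 7.06 with nCB in wild-type cells. In knockout cells it read 6.21, 6.00 and 5.85 with PBS and 7.34, 7.02 and 7.37 with nCB. Each nCB array was above each PBS array. The rise was 1.02 ± 0.16 in wild-type cells (2.02-fold, 95% interval 1.59 to 2.58, limma adjusted p = 3.51e-04) and 1.23 ± 0.16 in knockout cells (2.34-fold, 1.84 to 2.98, adjusted p = 7.72e-05). Without background correction it was 0.51 and 0.66.

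The genotype comparisons asked whether loss of Mir22 changed these genes. Under PBS, 0 of the 7 were called between knockout and wild-type cells by limma, where 0.945% of all features were called, and 1 of the 7 had an unadjusted p under 0.05. Under nCB, 0 were called, against 3.42% of all features, and 0 had an unadjusted p under 0.05. Of all probes 3.4% were called under nCB and 0.0634% for the interaction. The interaction of genotype and exposure called 0 of the 7, against 0.129% of all features, with 1 at an unadjusted p under 0.05. These shares rest on few calls that moved when 1 array was left out. The 117 features called under PBS numbered 69 to 125, falling to 69 when wild-type PBS 1 was left out, to 71 when knockout PBS 3 was and to 78 when wild-type PBS 2 was. The 424 under nCB numbered 160 to 517, with 160 without knockout nCB 2, 191 without wild-type nCB 1 and 272 without knockout nCB 1. The 16 of the interaction numbered 6 to 34, with 34 without knockout nCB 3 and 6 to 9 without wild-type PBS 1 or 2, any 1 knockout PBS array, wild-type nCB 1 or knockout nCB 1. These contrasts share groups with the exposure comparisons above.

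Gpnmb was the gene with the lowest p between genotypes under PBS. Its knockout arrays (mean 11.92 ± 0.08, SD, n = 3) stood above the wild-type ones (11.45 ± 0.24) by 0.47 ± 0.12 log2 units (95% interval 0.20 to 0.73, limma adjusted p = 0.122), and it alone of the 7 had groups that did not overlap, against 13.2% of features. The difference passed without background correction (adjusted p = 0.0366), with an offset of 50 (0.0406), with a trended robust prior (0.0168) and without wild-type PBS 3 (0.60, adjusted p = 0.0389). Those were 3 of 11 alternatives and 1 of 12 fits without 1 array. Over all alternatives the difference ran from 0.31 to 0.47, with a limma adjusted p of up to 0.86. Without 1 array it ran from 0.35 to 0.60, with an adjusted p of up to 0.454. The 3 other probes differed by 0.17, 0.63 and 0.28, and none was called in the fit of all probes, where 0.778% were. Under nCB the brightest probe differed by 0.04 ± 0.12 (limma adjusted p = 0.911).

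The exposure difference of Gpnmb in knockout minus that in wild-type cells was -0.42 ± 0.17 log2 units (limma, unadjusted p = 0.0284, adjusted p = 0.437). On probe 2 the interaction was -1.04 ± 0.26 (unadjusted p = 9.87e-04, adjusted p = 0.173 over all probes, limma), and on probes 1 and 4 it was -0.25 and -0.08. The sign was shared by the 4 probes, and none passed the adjusted test.

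Trem2 under nCB was lower on all 3 knockout arrays than on all 3 wild-type arrays, as for 19.8% of features in one direction or the other. The difference was -0.25 ± 0.14 (95% interval -0.55 to 0.04, limma adjusted p = 0.392). Its interaction was -0.40 ± 0.19 (-0.81 to 0.02, adjusted p = 0.530). Under PBS it differed by 0.14 (adjusted p = 0.892). Il7r differed by -0.09 under PBS and by -0.28 under nCB (interval -0.60 to 0.03, limma adjusted p = 0.372), and Fabp5 by 0.07 and 0.28 (-0.07 to 0.63 under nCB, adjusted p = 0.432). For Tyrobp, Cd9 and Lgals3 the genotype differences lay between -0.02 and 0.10 log2 units. Their 95% intervals lay between -0.31 and 0.41.

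**Figure D3:**
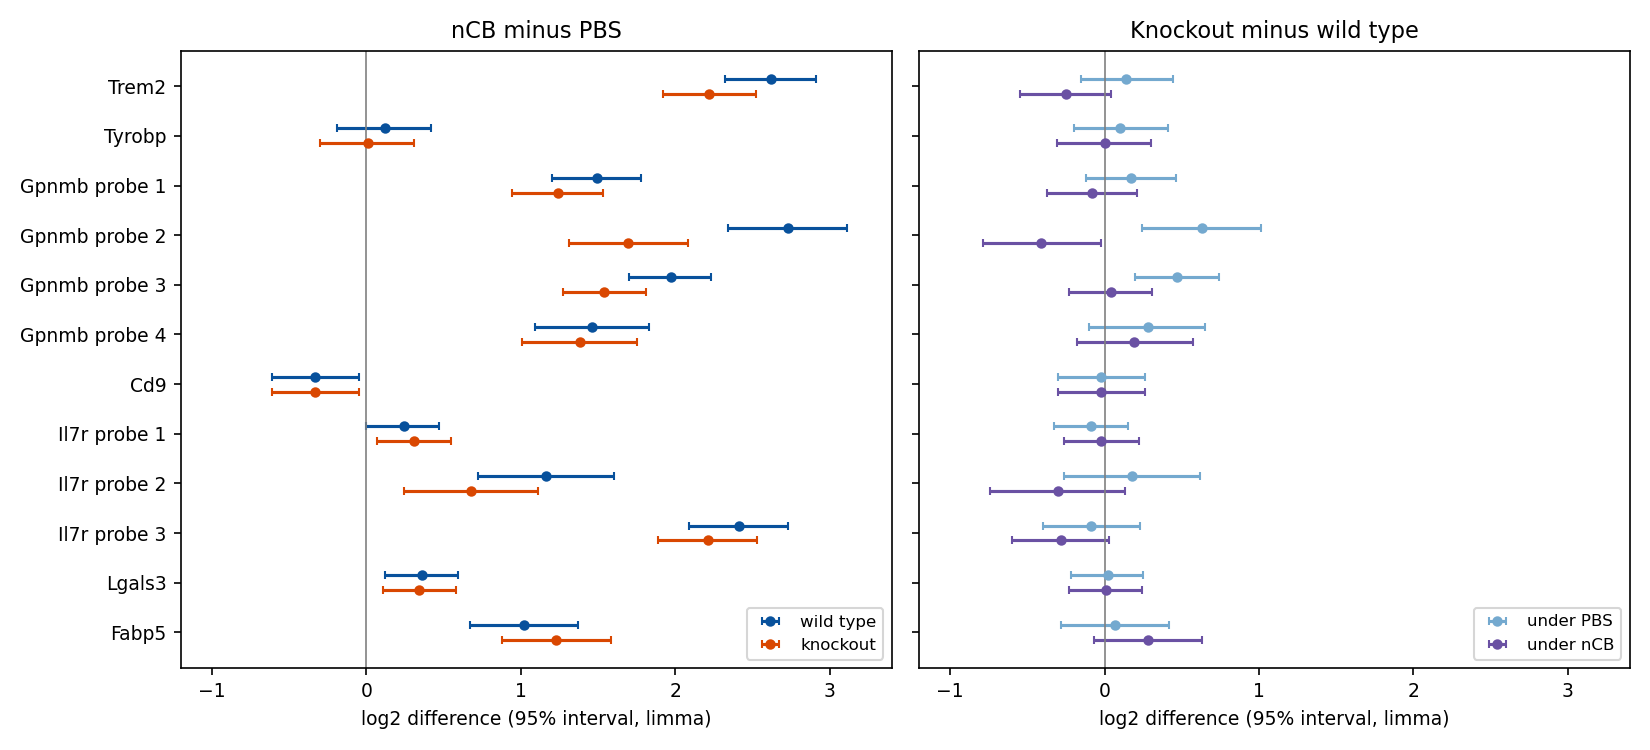
Log2 differences (horizontal axis) with 95% intervals from limma for every tested probe of the 7 genes, nCB minus PBS on the left and knockout minus wild type on the right, each on the same scale. The exposure differences of Trem2, Gpnmb, Fabp5 and probe 3 of Il7r lie far from 0 in both genotypes, and the genotype differences lie between -0.41 and 0.63.

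Markers of lung macrophage populations moved with exposure in the same samples. Across all features, 8.88% were called higher and 9.22% lower in wild-type cells, and 8.69% and 7.29% in knockout cells. Of 14 alveolar macrophage markers, 11 were measured, and 0 rose and 8 fell in wild-type cells, and 0 rose and 6 fell in knockout cells. Their summed level (background-corrected linear intensity) was 26300 to 27100 in wild-type PBS, 25300 to 27400 in knockout PBS, 14800 to 18400 in wild-type nCB and 21000 to 23400 in knockout nCB. Chil3 made up 52.5% to 67.5% of that level in each group. Without Chil3 the sum was 11400 to 12300, 12200 to 12600, 4580 to 5910 and 6500 to 8210 in that order. Leaving it out was chosen after the values were seen. Of 14 monocyte and interstitial macrophage markers, 12 were measured, and 6 rose and 1 fell in wild-type cells (Lyve1, -0.54), while 6 rose and 0 fell in knockout cells. Their sum was 1830 to 1950, 1460 to 2010, 6420 to 7770 and 3900 to 5390 in the same order of groups. The C1q chains, C1qa, C1qb and C1qc, rose by 3.85 to 4.65 log2 units, and Ms4a7 by 3.14 and 2.67 on its brightest probe. In wild-type nCB cells C1qb, C1qc, Ms4a7 and C1qa were the brightest of the 12 (group means 11.19, 10.75, 9.85 and 9.33). Cd14, Csf1r, Plac8 and Ly6c1 were not called with nCB in either genotype. Ccr2, called in knockout cells alone, passed the filter only through its nCB arrays. The median difference of the 12 was 0.32 in wild-type and 0.31 in knockout cells. Of 14 conventional dendritic cell markers 10 were measured. In wild-type cells 5 rose (Clec9a, Itgae, Mgl2, Ccl17 and Kit, by 0.67 to 2.57) and Batf3 fell (-0.55), and in knockout cells 4 rose (Itgae, Mgl2, Ccl17 and Kit, by 0.92 to 2.29), with sums of 509 to 570, 326 to 390, 1560 to 1850 and 814 to 1500. Between genotypes under nCB, 3.42% of all features were called. There, 3 alveolar markers were higher in knockout than wild-type cells (Marco 1.01, Krt79 1.34 and Il18 0.72). In the same comparison 4 monocyte and interstitial markers were lower (C1qa -1.02, C1qb -0.93, C1qc -0.95 and Fcgr1 -0.61). The part of these shifts in the rises of Trem2, Gpnmb, Il7r and Fabp5, and in the genotype values of Trem2, was not tested.

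Il7r is also a marker of lymphocytes, so T cell and innate lymphoid markers are given beside it. With nCB, 18.1% of all features were called in wild-type and 16% in knockout cells. Of the 17 markers, 8 were measured. In wild-type cells 1 rose (Cd3g, 0.91) and 1 fell (Cd2, -1.03), while 0 rose and 1 fell (Cd2, -0.74) in knockout cells. Their summed level was 1960 to 2220, 1880 to 2270, 1190 to 1690 and 1320 to 1800 in the order of groups above, but Cd2 made up 57.7% to 81.7% of it. Without Cd2, a choice made after the values were seen, the other 7 summed to 293 to 489, 290 to 478, 450 to 884 and 406 to 728, so the nCB arrays reached higher and overlapped the PBS arrays. The median difference of the 8 was 0.20 in wild-type and 0.23 in knockout cells. Beside Cd3g, the values in wild-type cells were 0.81 for Thy1 (limma adjusted p = 0.0503), 0.45 for Cd3e, 0.18 for Cd3d, 0.22 for Skap1, -0.18 for Rora and -0.08 for Bcl11b. The part of lymphocyte RNA in the rise of Il7r was not tested. Rora was higher in knockout cells under PBS and nCB (0.53 and 0.54), with limma adjusted p = 0.0402 and 0.0182.

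Markers of other cell types are given beside the same backgrounds, 18.1% of all features called in wild-type and 16% in knockout cells. Of 4 measured B cell markers Cd79b and Fcer2a fell in wild-type cells (-1.2 and -1.14) and 0 changed in knockout cells. Of 5 natural killer markers Klrd1 rose (0.80) and Klre1 fell (-0.63) in wild-type cells, and 0 changed in knockout cells. Of 8 neutrophil markers Lcn2 rose (1.98) and S100a9, Csf3r and Retnlg fell (-0.61 to -1.23) in wild-type cells, while S100a8, Mmp9 and Lcn2 rose in knockout cells. Of 10 epithelial markers Sftpd rose in wild-type (1.12) and in knockout cells (1.54) and Cdh1 in knockout cells (0.53), and their summed level was 7110 to 9600, 4210 to 7550, 7210 to 8400 and 7760 to 9770 in the order of groups above. Scgb1a1 made up 67% to 78.8% of that level in each group, and without it the sum was 1670 to 2200, 978 to 1600, 2150 to 2970 and 1700 to 3340. Of 3 mast cell and basophil markers Gata2 fell in wild-type cells.

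Other genes of the lipid-associated programme were read from a list of 33, of which 27 were measured while Spp1, Cd36, Cd68 and Fabp4 were matched to no annotated probe. In wild-type cells 14 rose and 2 fell, with a median of 0.42 against -0.02 for all features. Of all features 8.88% were called higher and 9.22% lower there. In knockout cells 14 rose and 2 fell, with a median of 0.54 against -0.01, where 8.69% of all features were called higher and 7.29% lower. The list was chosen with earlier results of these data known, so these counts and medians are only descriptive. The largest rises in wild-type cells were Syngr1, a vesicle protein (4.35 ± 0.15), Mmp12, the macrophage elastase (4.00 ± 0.31), Cd63, a lysosomal tetraspanin (2.76 ± 0.19), and Igf1, a growth factor (2.72 ± 0.19). They rose in knockout cells by 3.69, 3.45, 2.36 and 1.67. Syngr1 was detected on 2 wild-type PBS arrays and 1 knockout PBS array, and over the alternatives its rise ranged from 2.34 to 6.95 in wild-type cells.

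Apoe, the lipid carrier that TREM2 binds, rose by 2.11 ± 0.21 in wild-type and 1.73 ± 0.21 in knockout cells. Msr1, a scavenger receptor, rose by 2.23 ± 0.11 in wild-type cells, where 1 of 3 PBS arrays detected it, and the rise ran from 0.82 to 5.04 over the alternatives. In knockout cells, where no PBS array detected it, Msr1 was at least 2.73-fold higher (limma adjusted p = 1.43e-07, group means 4.5 and 6.01). Msr1 passed the filter only through its nCB arrays, where it was high, so its calls with nCB are only descriptive. Apoc1, another apolipoprotein, fell by 1.52 and 2.25, and Axl, a receptor for dying cells, fell by 0.75 and 0.59 on its brightest probe, while its other probe differed by -0.01 and -0.13. Over the alternatives Apoc1 ran from -1.91 to -0.94 and -2.63 to -1.39, and Axl from -0.81 to -0.38 and -0.69 to -0.36. Between genotypes under nCB, Msr1 (-0.65, limma adjusted p = 0.00435) and Apoe (-0.81, adjusted p = 0.0410) were lower in knockout cells. The call for Apoe was lost in 8 of the 12 fits that left out 1 array (highest adjusted p = 0.207), namely without wild-type PBS 1, 2 or 3, wild-type nCB 1 or 2 or any knockout nCB array. It was also lost with the authors' processed values, without a filter, with a trended robust prior and with a replicate block. The call for Msr1 held in all 12 and was lost with median scaling and with the authors' processed values.

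**Figure D4:**
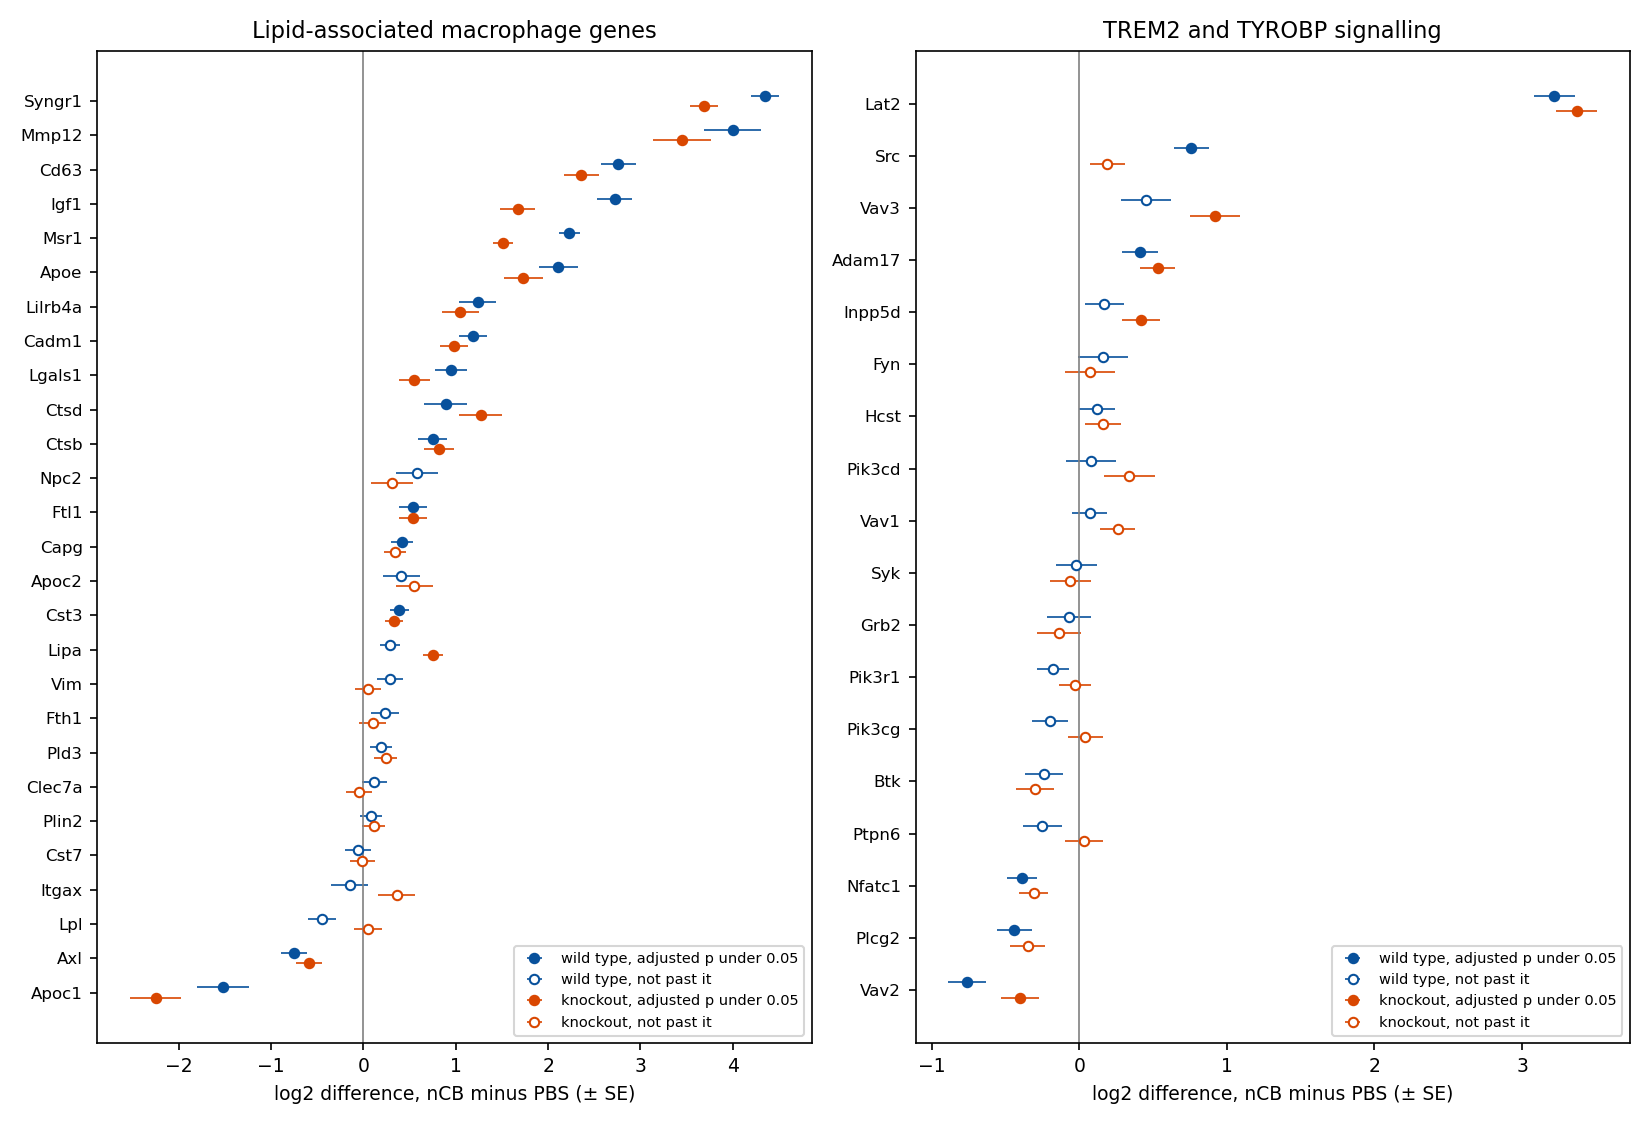
Log2 difference of nCB minus PBS (horizontal axis, ± SE from limma) for the 27 measured genes of the lipid-associated programme (left) and the 18 measured genes of TREM2 and TYROBP signalling (right), in wild-type and knockout cells. Filled points have an adjusted p under 0.05 over 12380 features and open points do not. Rises lead on the left, with 14 in each genotype, and Lat2 stands apart on the right.

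For this and the lists below, the background is 18.1% of all features called with nCB in wild-type and 16% in knockout cells. Downstream of TREM2 and TYROBP, 18 of 23 listed genes were measured, and 3 rose and 3 fell in wild-type cells and 4 rose and 1 fell in knockout cells. Those that rose were Lat2, Src and Adam17 in wild-type and Lat2, Vav3, Adam17 and Inpp5d (0.42) in knockout cells, and those that fell were Plcg2, Vav2 and Nfatc1 (-0.39) in wild-type and Vav2 (-0.40) in knockout cells. Lat2, a membrane scaffold phosphorylated by SYK, rose by 3.22 ± 0.14 and 3.37 ± 0.14 (limma adjusted p = 6.06e-10 and 5.29e-10), and its other probe by 2.73 and 2.63. Among the kinases, Src was higher with nCB in wild-type cells (group means 4.37 and 5.13, limma adjusted p = 2.30e-04), but no wild-type PBS array detected the probe used, so no fold is given. Syk itself, detected on 5 of 12 arrays, differed by -0.02 and -0.06 (limma adjusted p = 0.96 and 0.821). Hcst (DAP10), a second adaptor of TREM2, differed by 0.12 and 0.16 (limma adjusted p = 0.569 and 0.414).

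Plcg2, the phospholipase of the pathway, fell by 0.44 in wild-type cells (limma adjusted p = 0.0143). That call was lost without wild-type PBS 1, wild-type nCB 1 or wild-type nCB 3 (highest adjusted p = 0.0568) and with median scaling. Vav2, an exchange factor, fell by 0.76 in wild-type cells on its brightest probe, while its other probe differed by 0.04. Vav3 rose by 0.92 in knockout cells (limma adjusted p = 0.00159, range 0.44 to 1.22 over the alternatives), and Adam17, the sheddase that cleaves TREM2, rose by 0.41 and 0.53 on its brightest probe, with 0.01 and -0.08 on the other. The wild-type call of Adam17 was lost without wild-type PBS 1 or 3 or nCB 1 or 3 (highest adjusted p = 0.108). Median scaling and the mean of probes ended its call in both genotypes, and the authors' processed values ended it in wild-type cells. Inpp5d, a phosphatase, lost its call without any 1 knockout PBS array or knockout nCB 2 or 3 (highest adjusted p = 0.12), Nfatc1 without wild-type PBS 1 or 2 or nCB 1 (0.0691), and Vav2 in knockout cells in 9 of 12 such fits (0.183). Under PBS, Lat2 was lower in knockout cells (-0.69 ± 0.14, limma adjusted p = 0.0323), a call lost without wild-type PBS 1, 2 or 3 or knockout PBS 3 (highest adjusted p = 0.151) and under 5 of 9 alternatives.

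Other receptors that signal through TYROBP were measured for 8 of 13 listed genes. Clec5a, a C-type lectin receptor of myeloid cells, rose by 1.46 ± 0.13 and 1.42 ± 0.13 (limma adjusted p = 1.10e-06 and 2.10e-06), with all 4 of its probes rising by 1.15 to 1.46 and a range of 0.69 to 1.87 over the alternatives. Pilrb1, a paired immunoglobulin-like receptor, fell by 0.55 and 0.49, and each of these calls was lost in some fits without 1 array (wild-type PBS 1 or 3 or nCB 3, and knockout PBS 1 or 2 or nCB 1 or 3, highest adjusted p = 0.0759 and 0.139). Sirpb1a fell by 0.36 in knockout cells, a call lost in 8 of 12 such fits (highest adjusted p = 0.128), namely without wild-type PBS 2, wild-type nCB 2 or any knockout array. So 1 rose and 1 fell in wild-type cells, and 1 rose and 2 fell in knockout cells.

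Of the MITF and TFE factors and their regulators, which act on Gpnmb and lysosomal genes, 5 of 7 listed were measured, and Mitf and Tfeb were detected on too few arrays to be tested. Fnip1, a partner of folliculin, rose by 0.50 ± 0.14 and 0.73 ± 0.14 (limma adjusted p = 0.0177 and 0.00158), and its wild-type call was lost without wild-type PBS 1 or nCB 3 (0.0839). Tfe3 differed by 0.27 and 0.30 (limma adjusted p = 0.204 and 0.155). Tfec differed by -0.40 in knockout cells (limma adjusted p = 0.0440), a call lost in 10 of 12 fits that left out 1 array (highest adjusted p = 0.207).

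The measured partner chain and kinase of IL7R, Crlf2 and Jak1, were not called. Of 13 listed genes of the interleukin-7 and TSLP axis 10 were measured, and 1 rose and 0 fell in wild-type cells and 1 rose and 1 fell in knockout cells. Crlf2 differed by 0.07 and -0.10 and Jak1 by -0.17 and -0.10, with no call (limma adjusted p from 0.541 to 0.875), and Il2rg had no listed probe. Pim1, a kinase gene induced by STAT5, rose by 0.67 in wild-type cells on its brightest probe (0.08 on the other), detected on 1 wild-type PBS array, with a range of 0.18 to 2.18 over the alternatives. Bcl2 rose by 0.59 in knockout cells, where its 3 other probes differed by 0.04, 0.37 and 0.34. Its probe was detected on 1 knockout PBS array, its call was lost with median scaling and with the mean of probes, and its value ran from 0.16 to 2.31 over the alternatives. Cish, a feedback inhibitor of STAT5 signalling, fell by 0.56, a call lost without knockout nCB 3 (adjusted p = 0.0616), with median scaling and with the authors' processed values.

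Among tetraspanins and their partners, the family of Cd9, 16 of 22 were measured, and 4 rose in wild-type and 5 in knockout cells while 0 fell. Cd63 led, with rises of 2.70 and 1.92 on its 2 other probes in wild-type cells, followed by Tspan4 (1.46 and 0.91 on its brightest probe) and Tspan3 (1.13 and 0.70). Over the alternatives Tspan4 ranged from 0.51 to 2.81 and Tspan3 from 0.50 to 1.56 in wild-type cells, and from 0.31 to 1.61 and 0.25 to 1.19 in knockout cells. Tspan17 (0.39) was the last of the 4 in wild-type cells, and Tspan32 (0.49) and Cd37 (0.47) completed the 5 in knockout cells. The last 3 calls and that of Tspan3 in knockout cells were each lost in 2 to 7 of 12 fits without 1 array (highest adjusted p from 0.0574 to 0.164). The 2 other probes of Tspan4 differed by 0.12 and 0.23 in wild-type cells. Cd81, the closest partner of CD9, differed by 0.35 and 0.19 (limma adjusted p = 0.0598 and 0.339). Tspan3 was lower in knockout than wild-type cells under nCB (-0.77, limma adjusted p = 0.0288), a call lost without any 1 of the wild-type nCB arrays or without knockout nCB 2 (highest adjusted p = 0.155) and under 4 of 9 alternatives.

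In the galectin family, 6 of 8 were measured, and 3 rose and 2 fell in wild-type cells and 2 rose and 0 fell in knockout cells. Lgals1, galectin-1, rose by 0.95 ± 0.17 in wild-type cells and by 0.55 ± 0.17 in knockout cells, the second a call lost without wild-type PBS 2, wild-type nCB 2, knockout PBS 1 or 3 or any knockout nCB array (highest adjusted p = 0.161). Lgals3bp, a secreted glycoprotein that binds galectin-3, rose by 0.87 and 0.63. Lgals9 rose by 0.48 in wild-type cells, a call lost without wild-type PBS 3 (adjusted p = 0.0592). Lgals7 was lower with nCB in wild-type cells (group means 4.75 and 4.4, limma adjusted p = 0.0332), but its probe was detected on no nCB array, so no fold is given. It passed the filter only through the 3 wild-type PBS arrays, where it was high, so its call, counted above, is only descriptive. That call was lost in 5 of 12 fits without 1 array (highest adjusted p = 0.124), without background correction, with an offset of 50 and with median scaling. Lgals4 fell by 0.73 in wild-type cells and was higher by 0.74 in knockout than wild-type cells under nCB (limma adjusted p = 0.00123). Over the alternatives the first value ran from -1.31 to -0.24 and the second from 0.24 to 1.32. Only median scaling, of the 9 alternatives and 12 fits without 1 array, ended that call.

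Of 13 fatty acid-binding proteins and PPAR partners, 5 were measured. Pparg, the nuclear receptor that maintains alveolar macrophages and regulates lipid uptake, fell by 1.01 ± 0.13 and 0.93 ± 0.13 (limma adjusted p = 5.13e-05 and 1.53e-04), with its other probes at -0.98 to -1.39. Rxra, its partner receptor, fell by 1.07 and 0.83, with ranges of -1.68 to -0.41 and -1.46 to -0.28 over the alternatives. Fabp3 rose by 0.64 in wild-type cells (limma adjusted p = 0.011), detected on 1 wild-type PBS array and ranging from 0.18 to 2.47 over the alternatives, a call lost without wild-type PBS 2 or nCB 1 (highest adjusted p = 0.0553), and Ppard differed by -0.34 and -0.08 (limma adjusted p = 0.0909 and 0.731). So Fabp5 rose in wild-type cells where Pparg and Rxra fell. Fabp3 passed the filter only through its wild-type nCB arrays, where it was high, so its call is only descriptive.

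The genes whose pattern over the 12 arrays was most like each of the 7 were found by the root mean square difference of centred log2 intensities. For Trem2 they were Akr1b8, an aldo-keto reductase (0.15), Cd63 (0.18) and Car13, a carbonic anhydrase (0.18), where the median over all genes was 1.25. For Gpnmb they were Gask1b (0.16), Fads1, a fatty acid desaturase (0.16), and Ctsk, a cathepsin (0.19), against a median of 0.93. For Il7r they were the monocyte attractant Ccl2, the ceramidase Acer3 and Rai14 (0.16 each, median 1.20).

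The nearest pattern to Fabp5 was that of Zdhhc14 (0.15), with Sh3pxd2b (0.18) and Lrpap1 (0.20) next (median 0.64). For the genes that moved little the distances were small for many genes. The nearest were Pbld2 (0.08), Zfp609 (0.09) and Ifit1bl1 (0.09) for Tyrobp, Stk24 (0.08), Ppp2cb (0.09) and Slc25a5 (0.09) for Cd9, and Pira2 (0.08), Esyt1 (0.08) and Ap1s1 (0.09) for Lgals3, against medians of 0.26, 0.27 and 0.28. Arrays of a group share their exposure and genotype, so these distances describe 4 groups more than 12 independent samples.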

How the data were processed

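RNA of 12 samples was measured on Illumina bead arrays after 100 ng of total RNA per sample was amplified with a biotin label, per the labels. The authors deposited the scanned intensity of each probe with a detection p-value beside it, exported with GenomeStudio per the submitters' processing notes. They also deposited a matrix of 24952 probes, which from its values is on a log2 scale and quantile-normalized (column median 3.118 on every array), and which was used as an alternative. Each array of the matrix was matched to its intensities by rank correlation (1 with its own array, at most 0.9091 with any other). From the intensities, neqc of limma 3.58.1 (R 4.3.3, offset 16) gave background-corrected, quantile-normalized log2 values. A probe was kept if 3 or more of the 12 arrays gave it a detection p below 0.05 (17346 probes), and the brightest probe stood for each symbol, leaving 12380 features. Symbols came from the platform annotation (20501 probes with 1 symbol, 11 with several), and probes with several were not named.

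A means model of the 4 groups of 3 arrays was fitted with lmFit and eBayes (8 residual and 6.86 prior degrees of freedom, two-sided), with Benjamini-Hochberg adjustment over all features in each of 5 comparisons. The steps were tested on simulated data. Arrays with the same replicate number did not deviate together (5 of 18 pairs correlated above 0.1), so no block was used. The number of arrays limits the precision. The members, the 8 gene lists and the marker lists were chosen with earlier results of these data known. Genes were named by a rule: from each list up to 4 called genes with the largest change with nCB in wild-type cells, up to 2 more for each other comparison, a few key partners, and the 3 nearest patterns per member. Inpp5d, Nfatc1, Tspan17, Lgals7 and Lgals9 were named after their values were seen. Chromosomes and gene order came from RefSeq (GRCm38.p6), while the array files name no build.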

Additional observations from a re-analysis of the deposited data

How the results depend on the processing

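The results were recomputed under 11 alternatives (10 for the interaction) and without each array in turn. Of 798 values of the 7 genes, 740 kept their direction and their side of the threshold, 30 changed side and 28 changed sign, none of the last with an adjusted p under 0.796. The genes called with nCB numbered 4 to 6 in either genotype under the alternatives and 4 to 5 without 1 array. Those called between genotypes under PBS rose from 0 to 1 (Gpnmb) without background correction, with an offset of 50 and with a trended robust prior, and ranged from 0 to 1 without 1 array. Under nCB, and for the interaction, the count was 0 throughout. The cause of these changes was not tested.

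Signs turned only for uncalled values. Median scaling put the median difference of all features at -0.11 with nCB in wild-type cells and at -0.13 between genotypes under PBS. With it Tyrobp with nCB in knockout cells was -0.07. Between genotypes under PBS the same scaling gave -0.05 for Trem2, -0.04 for Tyrobp, -0.10 for Lgals3 and -0.07 for Fabp5, and under nCB -0.10 for Gpnmb and -0.10 for Lgals3. With the mean of probes Gpnmb was -0.06 under nCB, and averaged over both exposures, an alternative chosen after seeing the data, Trem2 was -0.06. Leaving out 1 array gave -0.08 to 0.17 for Tyrobp with nCB in knockout cells. Between genotypes under PBS it gave -0.01 to 0.19 for Tyrobp, -0.07 to 0.05 for Cd9, -0.20 to 0.04 for Il7r, -0.04 to 0.07 for Lgals3 and -0.02 to 0.18 for Fabp5. Under nCB it gave -0.11 to 0.07 for Cd9 and -0.06 to 0.05 for Lgals3, and for the interaction -0.20 to 0.05 for Tyrobp and -0.08 to 0.05 for Lgals3.

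With the replicate number as a block, 4 genes were called with nCB in either genotype, since Lgals3 fell short (adjusted p = 0.0508 and 0.0646), and 0 between genotypes. Only 1 of 12 arrays correlated best with its own number. Over all features median scaling called 1285 and 798 with nCB (2240 and 1978 otherwise), 78 and 119 between genotypes (117 and 424), and 6 for the interaction (16). The authors' values called 74, 137 and 6 in the last 3 comparisons, the absence of a filter 221 and 9 in the last 2, and the replicate block 10 for the interaction. Of 76 calls of listed genes, 48 held without each array in turn and 41 also under 9 alternatives. A slide as a block was not run, since the files give no slides.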

Other observations

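Between genotypes Lgals3 differed by 0.02 log2 units under PBS and 0.01 under nCB and was not called. Of the 44 measured genes within 5 Mb of it on chromosome 14, 7 (15.9%) were called between knockout and wild-type cells under PBS and 9 (20.5%) under nCB by limma, against 0.945% and 3.42% of all features. Within the same distance 0 of 62 genes near Trem2, 0 of 113 near Tyrobp, 0 of 38 near Gpnmb, 0 of 92 near Cd9, 1 of 23 near Il7r and 0 of 18 near Fabp5 were called under PBS. Under nCB the share near these 6 genes ran from 0 to 6.52%.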
